A study of Homo sapiens with 8 samples.

Results

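The promoters of 54 DNA repair genes were examined for peaks of PHF20 and PHF20L1 in U2OS cells, a human osteosarcoma line. A gene was called bound when a peak overlapped the interval that runs from 1000 bp before to 500 bp after the transcription start site (TSS) of any of its GENCODE transcripts on hg38. The 54 genes were a list of repair genes within 20033 protein-coding genes, and each was placed in 1 of 6 pathways: 15 in homologous recombination, 4 in non-homologous end joining, 9 in Fanconi crosslink repair, 10 in nucleotide excision repair, 5 in mismatch repair and 11 in base excision and single-strand break repair. The cells over-expressed 1 of the proteins with a triple HA tag, and chromatin was precipitated with an HA antibody (ChIP-Seq) and compared with input chromatin. For PHF20 there were 2 ChIP libraries and 1 input, all with the tag at the N terminus. For PHF20L1 there were 3 ChIP libraries (1 N-terminally and 2 C-terminally tagged) and 2 inputs, 1 of each kind. The cells had been sorted for GFP to enrich those with the tagged protein, and no library of untagged cells was used here. Each protein has 1 deposited list of peak positions. By the paper, a listed peak was called in the replicate with the best signal. It also had to overlap peaks of the remaining libraries, called at a looser threshold. A peak thus has a place and a width but no height, depth or replicate value. No spread between replicates can be given, and the 95% Wilson intervals printed here cover counting error over genes only. A gene absent from a list is one without a called peak, and the protein may still be there below the calling threshold.

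PHF20 and PHF20L1 are related proteins with Tudor domains and a PHD finger, which read methylated lysines, and both are subunits of nonspecific lethal (NSL) complexes built around the histone acetyltransferase KAT8. Cells repair DNA by several pathways. Homologous recombination copies a lost stretch from a sister chromatid, end joining rejoins broken ends directly, the Fanconi pathway unhooks crosslinked strands, nucleotide excision cuts out bulky lesions, mismatch repair corrects replication errors, and base excision removes single damaged bases. Many of these genes are active in most tissues from CpG-rich promoters, and several share a promoter with a neighbour that is transcribed in the other direction.

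Short stretches of the bound promoters are printed here because they hold the letters compared further on. All were read from hg38. The first set gives 30 bases around matches to CCGGAAGT, the core letters bound by ETS family factors, in the PHF20 peaks of the members, followed by the matches in promoters of members without a peak. Each is written in the direction in which the motif reads CCGGAAGT, with the motif in capitals. The BRCA2 and FANCD2 matches also lie inside the PHF20L1 peak.
BRCA2: acacgcaccacCCGGAAGTcaggcctgggt
FANCD2: caacttccgcgCCGGAAGTggaaggccggg
RAD50, first match: ccagcaaagatCCGGAAGTccgctgcccct
RAD50, next match: ccgtaccgcacCCGGAAGTcggagctgcgc
MRE11: aggagacgaacCCGGAAGTgagatgcaagg
XRCC4, first match: tttggaagataCCGGAAGTagagtcacgga
XRCC4, next match: agaggtaggatCCGGAAGTggggctgcctc
ERCC3: tccggattgagCCGGAAGTccccccagagc
ERCC6: ctcacctgagaCCGGAAGTagcgccaagga
PALB2, no peak: tggaggagcggCCGGAAGTagccggaatct
LIG4, no peak: ccgagcgggggCCGGAAGTggggccacagc
OGG1, no peak: ccacagcaccaCCGGAAGTagggctcaacc
The next set gives longer stretches of peaks that lie outside annotated exons, 5′ to 3′ on the strand of the named gene, with matches to the ETS letters (CCGGAAGT, here also read from the other strand) and to the E-box CACGTG in capitals. The BRCA2 stretch (chr13:32315364-32315495, plus strand) is the promoter side of its PHF20L1 peak and holds both motifs. The APEX1 (chr14:20455090-20455190, plus strand) and TDG (chr12:103965729-103965821, plus strand) stretches are from PHF20 peaks of base excision genes and hold E-boxes but no ETS letters.
BRCA2: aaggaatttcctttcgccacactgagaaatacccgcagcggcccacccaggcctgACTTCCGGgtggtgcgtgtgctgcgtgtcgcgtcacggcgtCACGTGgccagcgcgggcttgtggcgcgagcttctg
APEX1: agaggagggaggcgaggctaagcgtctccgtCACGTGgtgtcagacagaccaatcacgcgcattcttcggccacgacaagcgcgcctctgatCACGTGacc
TDG: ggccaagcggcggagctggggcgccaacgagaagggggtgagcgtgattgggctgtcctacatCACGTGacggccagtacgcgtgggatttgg

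Of the 54 repair genes, 28 carried a PHF20 promoter peak, which is 51.9% (interval 38.9 to 64.6), beside 20.7% of all protein-coding genes (4148 of 20033). PHF20L1 peaks lay at 5 members, 9.26% (4.02 to 19.9), beside 3.82% of all genes (766 of 20033). These 5 genes, BRCA1, BRCA2, RAD50, FANCD2 and ERCC5, also carried a PHF20 peak, and 3.73% of all genes (747) carried both. The other 23 bound members had PHF20 alone, 26 had neither protein, and 0 had PHF20L1 without PHF20. The PHF20L1 list is the shorter, with 723 peaks against 4147, and the libraries of the proteins differed in number and in tag position. The part of unequal peak calling in these counts was not tested, so PHF20 alone means only that no PHF20L1 peak was called. The repair genes have more annotated transcripts than most genes, with a median of 18 against 6, and so their promoter windows add up to a median of 7480 bp against 3700 bp. With the canonical TSS of each gene alone, 28 members were still bound by PHF20 and 5 by PHF20L1, beside 19.1% and 3.47% of all genes. Expression of these genes was not analysed here, and its part in these shares was not tested.

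The pathways were compared next. PHF20 was found at 10 of 15 homologous recombination genes (66.7%, 41.7 to 84.8), 6 of 10 nucleotide excision genes (60.0%, 31.3 to 83.2) and 5 of 9 Fanconi genes (55.6%, 26.7 to 81.1). It was found at 2 of 4 end joining genes (15.0 to 85.0%), 2 of 5 mismatch genes (40.0%, 11.8 to 76.9) and 3 of 11 base excision and single-strand break genes (27.3%, 9.75 to 56.6). The intervals of all 6 pathways overlap each other, so their order is not settled by these counts. The intervals of homologous recombination, nucleotide excision and Fanconi repair lie above the share of all genes, and the other three contain it. PHF20L1 was found at 3 homologous recombination genes, 1 Fanconi gene and 1 nucleotide excision gene. It was found at 0 of the 4 end joining, 0 of the 5 mismatch and 0 of the 11 base excision genes, with upper bounds of 49.0%, 43.4% and 25.9%.

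**Figure D1:**
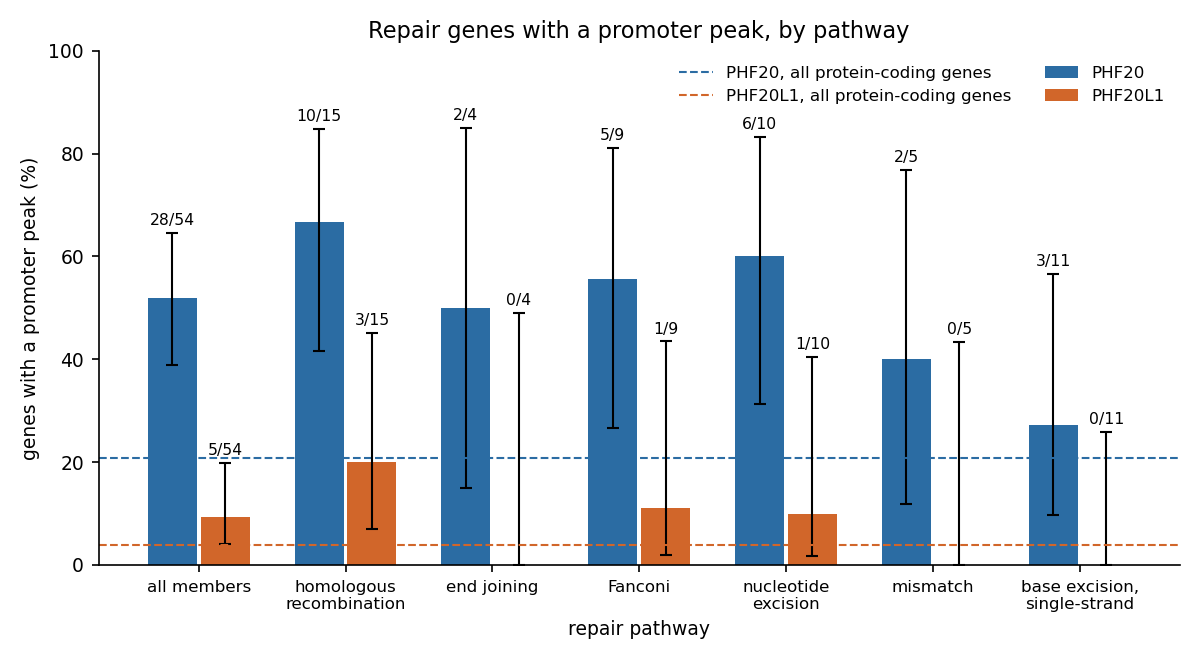
Share of repair genes with a promoter peak of PHF20 (blue bars) or PHF20L1 (orange bars), for all members and for each pathway, in percent. Error bars are 95% Wilson intervals, the numbers above them are bound genes over all genes, and dashed lines give the share of all protein-coding genes; the PHF20 bar is highest for homologous recombination (66.7%) and lowest for base excision (27.3%), and the intervals overlap.

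Among the genes that open a double-strand break for recombination, all 3 of the MRN complex were bound by PHF20 (interval 43.9 to 100%). MRN holds the broken ends and starts their resection. RAD50, its ATPase, had a PHF20 peak of 1453 bp (chr5:132556366-132557818) and a PHF20L1 peak of 403 bp that began 21 bp downstream of the canonical TSS. MRE11, the nuclease, had a PHF20 peak of 976 bp that ran from 559 bp before to 416 bp after its canonical TSS. NBN, which links the complex to ATM signalling, had a PHF20 peak of 733 bp that lay almost wholly downstream of its canonical TSS. The NBN call is lost when only the outermost TSS is used, as is the PHF20L1 call of RAD50.

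The BRCA tumour suppressors differed from their partner. BRCA1 and BRCA2 were bound by both proteins, while PALB2, the bridge between them, had neither, and the nearest PHF20 peak was 177299 bp from its promoter window. BRCA2 had a PHF20 peak of 673 bp (chr13:32314901-32315573) and a PHF20L1 peak of 296 bp within it. The BRCA2 promoter faces ZAR1L, whose canonical TSS is 145 bp away, and both peak centres were nearer a ZAR1L TSS: the PHF20L1 centre was 16 bp from it and 158 bp from the nearest BRCA2 TSS. If each peak is given to the nearest coding TSS alone, BRCA2 is no longer bound by either protein. Its PHF20L1 call is also lost when peaks under 300 bp, or those narrower than the list median, are left out.

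BRCA1 was the only member with separate peaks of both proteins at a pair of places. At the canonical promoter the PHF20 peak was 975 bp wide (chr17:43125179-43126153) and the PHF20L1 peak 246 bp. These lay 22 and 55 bp, by their centres, from a TSS of the noncoding gene NBR2, which faces BRCA1 at 187 bp. The more distant PHF20 peak was 1116 bp wide (chr17:43169899-43171014), with its centre 45092 bp upstream of the canonical TSS and 211 bp from the start of a longer BRCA1 transcript. It lies at the promoter of NBR1, the centre being 25 bp from an NBR1 TSS, and the PHF20L1 peak there was 673 bp wide. Aligned on the same strand, the PHF20 peak sequences were 84.6% identical over 799 columns that covered 769 bp of the canonical peak. The authors kept uniquely mapped reads, and how near-copies of this kind affect the calls was not tested. BRCA1 is bound by both proteins with the canonical TSS alone.

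The remaining recombination genes carried PHF20 only or nothing. Among the genes of strand exchange, RAD51C (916 bp), XRCC2 (821 bp) and RAD51D (643 bp) were bound, and RAD51B and XRCC3 were not. RAD51B was the member nearest to the edge of the rule: a PHF20 peak lay 1491 bp outside its windows, and it becomes bound when the window reaches 2500 bp to each side. The RAD51D peak began 18 bp downstream of the canonical TSS and is lost with the outermost TSS. RAD52, which anneals single strands, had a peak of 660 bp at its canonical promoter and another of 480 bp at an upstream start that it shares with ERC1. Of the RecQ helicases, WRN had a PHF20 peak of 640 bp, the narrowest among the bound recombination genes when each is taken by its widest peak, and BLM had none. RAD54L, a motor protein of recombination, had none, the nearest lying 29542 bp away.

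In end joining, the Ku heterodimer that grips broken ends was split. XRCC6 (Ku70) had a PHF20 peak of 389 bp and XRCC5 (Ku80) had none within 294040 bp of its window. The ligase complex was split as well. XRCC4, its scaffold, had a PHF20 peak of 856 bp, while LIG4, its ligase, had the nearest PHF20 peak at 2395514 bp, the largest gap among the members. The XRCC4 peak was centred 35 bp from a TSS of TMEM167A, which faces it at 153 bp, and 305 bp from the nearest XRCC4 TSS, so the call is lost when a peak is given to the nearest coding TSS. The XRCC6 call is lost when PHF20 peaks narrower than the list median are left out.

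In the Fanconi pathway both genes of the ID2 complex, the clamp that is ubiquitinated at a crosslink, were bound. FANCD2 had the widest PHF20 peak of all members, 1538 bp (chr3:10025482-10027019), at percentile 99.1 of the PHF20 list by width. Its PHF20L1 peak of 442 bp was the only one of a member to span the canonical TSS. FANCI had adjacent PHF20 peaks of 292 and 578 bp. Of 7 core complex and anchor genes, 3 were bound: FANCF (1120 bp), an adaptor of the core complex, FANCM (782 bp), the translocase that brings the complex to DNA, and FANCL (497 bp), its ubiquitin ligase and the narrowest of the bound Fanconi genes by the widest peak of each. FANCA, FANCC, FANCE and FANCG, all subunits of the core complex, had neither protein. FANCG was the next nearest to the edge after RAD51B, with a PHF20 peak 2669 bp outside its windows. The calls of FANCI and FANCL are lost when peaks under the list median width are left out.

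In nucleotide excision repair the members also fell apart within complexes. ERCC3 (XPB), a helicase of TFIIH, had a PHF20 peak of 1036 bp, and ERCC2 (XPD), the other TFIIH helicase, had none within 178572 bp. ERCC4 (XPF), the catalytic subunit of the 5′ nuclease, had a peak of 756 bp, and its partner ERCC1 had none within 234557 bp. ERCC5 (XPG), the 3′ nuclease, was the only member here with both proteins: its PHF20 peak was 1312 bp wide (chr13:102844966-102846277) and its PHF20L1 peak 224 bp, lying 452 to 229 bp upstream of the canonical TSS. That PHF20L1 call is lost when peaks under 300 bp, or under the list median, are left out. Of the Cockayne syndrome genes, ERCC6 (671 bp) was bound and ERCC8 was not. Of the damage sensors, XPC (365 bp, the narrowest in this pathway) and DDB1 (717 bp) were bound, and XPA, the verification factor, was not. The ERCC6 and DDB1 calls are lost with the outermost TSS, and that of XPC with peaks of at least the median width.

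In mismatch repair neither MutS homolog measured, MSH3 and MSH6, carried a peak, and these recognize the mismatch. Of 3 MutL homologs, which act after mismatch recognition, MLH3 (464 bp) and PMS2 (224 bp) were bound and PMS1 was not. The PMS2 peak was the narrowest of any bound member. It lay 479 to 256 bp upstream of the canonical TSS, wholly within AIMP2, which faces PMS2 at 223 bp, and its centre was 100 bp from an AIMP2 TSS. The PMS2 call is lost when peaks under 300 bp, or under the list median, are left out or when a peak is given to the nearest coding TSS. Pseudogene copies of PMS2 exist, and only uniquely mapped reads were used by the authors. The MLH3 call is lost with the median width as the minimum, which leaves 0 mismatch genes bound.

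In base excision and single-strand break repair 3 genes were bound, all by PHF20 alone. TDG, a glycosylase for G:T and G:U mispairs, had a peak of 699 bp, and the other 3 glycosylases, OGG1, MUTYH and UNG, had none. APEX1, the main abasic site nuclease, had a peak of 1042 bp centred 6 bp from a TSS of OSGEP and 96 bp from the nearest APEX1 TSS, and its call is lost when the nearest coding TSS alone counts. PARP2 had a peak of 416 bp that lay 644 to 229 bp upstream of its canonical TSS, and 79.8% of the peak was within RPPH1, the RNA gene of RNase P, which faces PARP2 at 228 bp. The PARP2 call is lost when peaks narrower than the list median are left out. PARP1, the major sensor of single-strand breaks, had none within 51834 bp. The polymerase POLB, the scaffold XRCC1 and the ligases LIG1 and LIG3 also had none. Together with LIG4 in end joining, 0 of 3 DNA ligases were bound, with an interval of 0 to 56.1% that contains the share of all genes.

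**Figure D2:**
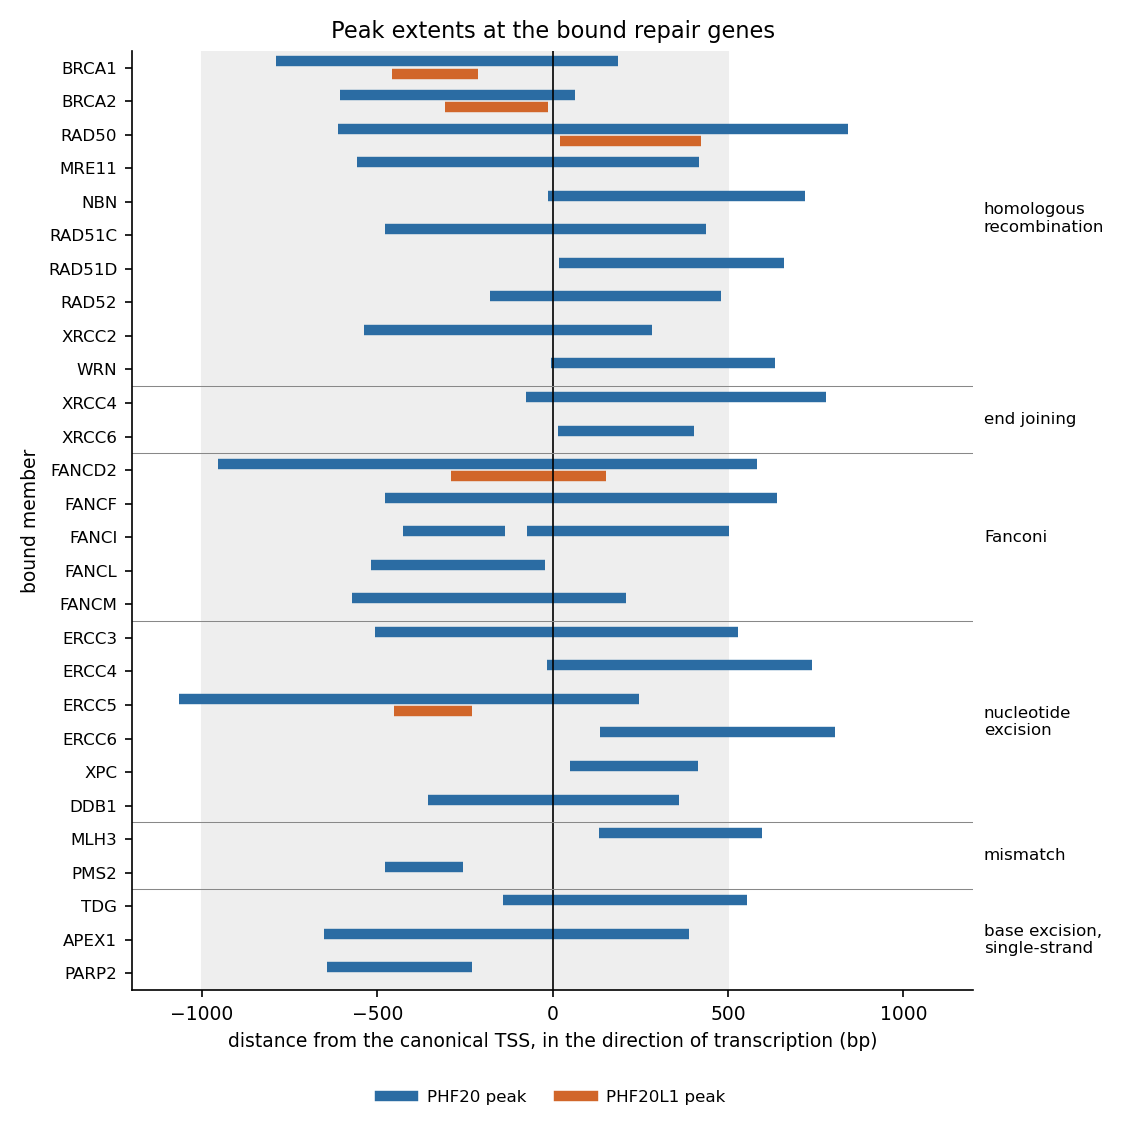
Extent of each PHF20 peak (blue) and PHF20L1 peak (orange) at the 28 bound members, as distance in bp from the canonical TSS in the direction of transcription, with genes grouped by pathway and the promoter window shaded. Peaks that span the line at 0 cover the canonical TSS, as at 20 members for PHF20 and 1 for PHF20L1; the more distant peaks of BRCA1 and RAD52 are outside the range.

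The place of the peaks was described across the bound members. A PHF20 peak spanned the canonical TSS at 20 of the 28, and at the remaining ones it lay to 1 side. Counted by pair of gene and peak this was 20 of 31, close to the 60.3% of such pairs over all genes (2673 of 4435). A peak at the promoters of several genes counts once for each of them. For PHF20L1 it was 1 of 6 pairs, from 5 genes, beside 51.0% over all genes (398 of 780). Among these 6 was the BRCA1 peak centred 45376 bp upstream, which is too far away to span the canonical TSS. The PHF20L1 peaks were narrower, and 5 of 6 lay wholly inside a PHF20 peak. The exception was the wider BRCA1 peak, of which 90.8% was covered. Over the whole lists PHF20L1 peaks were also narrower, with a median of 314 bp against 599 bp. Of the 766 protein-coding genes with PHF20L1, 747 also carried PHF20. The share of all PHF20L1 peaks that lie inside a PHF20 peak was not measured. No member without a promoter peak had a PHF20 peak elsewhere in its gene. For the 26 members without a peak, the median distance from the window to the nearest PHF20 peak was 78628 bp, and after RAD51B and FANCG the next was XRCC1 at 14781 bp.

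**Figure D3:**
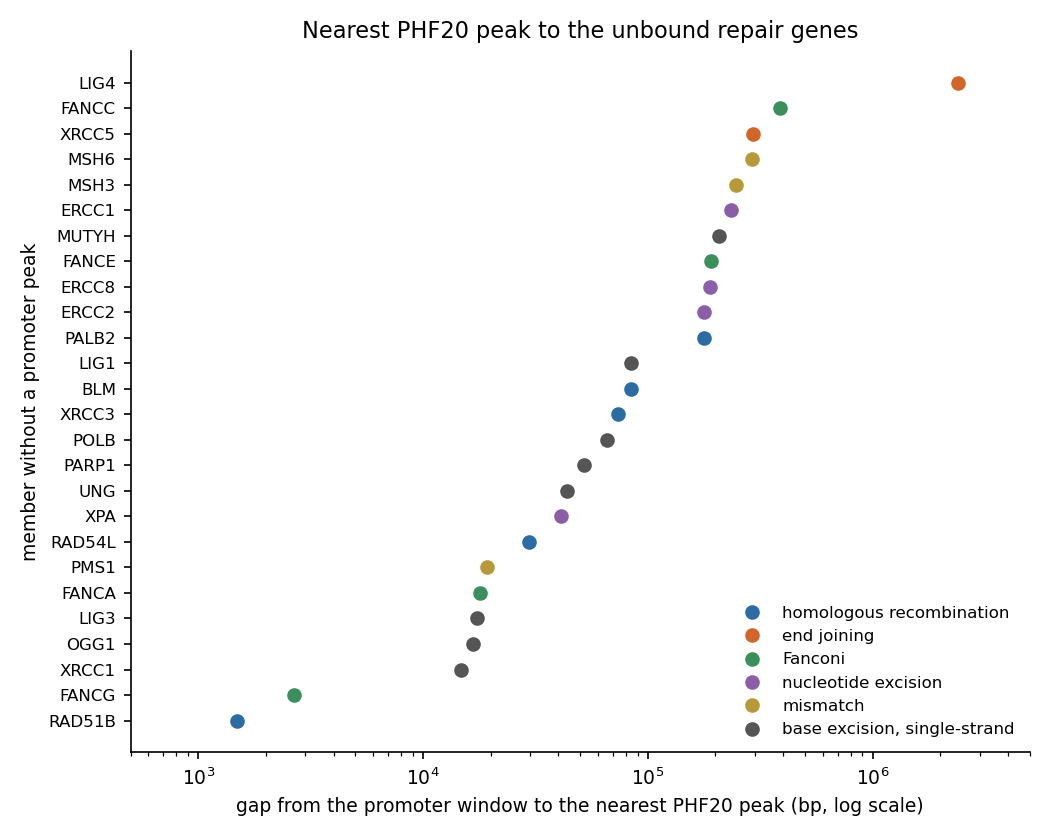
Gap in bp on a log axis between the promoter window of each of the 26 members without a peak and the nearest PHF20 peak, with 1 point a gene coloured by pathway. RAD51B (1491 bp) and FANCG (2669 bp) lie nearest, and LIG4 (2395514 bp) farthest.

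Width is the only measure of size in the lists. The widest PHF20 promoter peak of a bound member had a median of 725 bp (95% interval of the median 643 to 916, n = 28), and that of all bound protein-coding genes was 682 bp (n = 4148). By pathway the medians were 777 bp for recombination (n = 10), 782 bp for Fanconi (n = 5), 736 bp for nucleotide excision (n = 6), 699 bp for base excision (n = 3), 622 bp for end joining (n = 2) and 344 bp for mismatch repair (n = 2). The 5 members that also carried PHF20L1 had a median PHF20 width of 1312 bp, and the 23 with PHF20 alone had 699 bp. Over all genes the order was the same, with 989 bp (n = 747) against 614 bp (n = 3401). FANCD2, RAD50 and ERCC5 had the widest 3 peaks among the members, and BRCA2, at 673 bp, lay below the median of the 23.

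**Figure D4:**
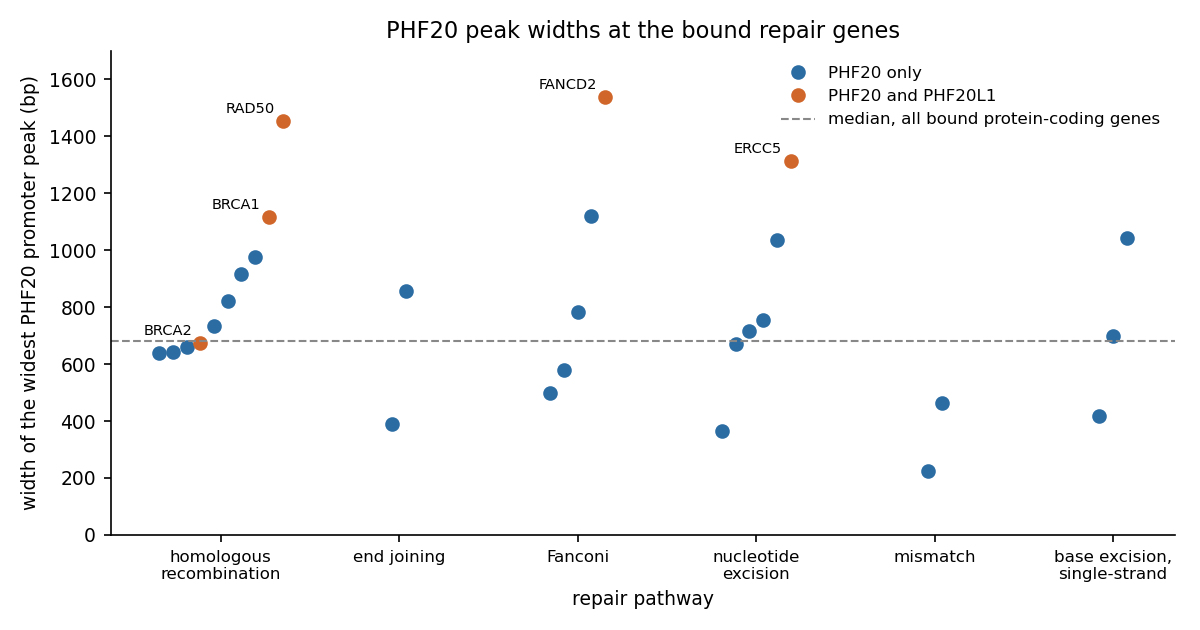
Width in bp of the widest PHF20 promoter peak of each bound member, 1 point a gene, by pathway, with members that also carry PHF20L1 in orange and labelled. The dashed line is the median of all bound protein-coding genes (682 bp); FANCD2, RAD50 and ERCC5 stand highest and PMS2 (224 bp) lowest.

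Many of the PHF20 peaks at bound members also overlapped the promoter window of another gene. At 17 of 28 members (60.7%, 42.4 to 76.4) the PHF20 peak also overlapped the promoter window of another protein-coding gene, beside 38.2% of all bound genes. With noncoding genes included this was 21 of 28 (75.0%, 56.6 to 87.3) beside 58.8%. A coding neighbour that faces the gene with its canonical TSS within 1000 bp was present at 10 of the 28 bound members (35.7%) and at 7 of the 26 without a peak (26.9%), and their intervals overlap. Over all genes these shares were 21.3% and 6.37%. Members that face a coding neighbour without carrying a peak were PALB2 with DCTN5, XRCC3 with ZFYVE21, ERCC8 with NDUFAF2, PMS1 with ORMDL1, MUTYH with TOE1, XRCC1 with PINLYP and LIG1 with ZSWIM9. A peak at such a place cannot be assigned to either gene from these lists.

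Base composition was compared over the 300 bases around each start, 250 before and 50 after, which RefSeq gives for 49 of the 54 members on GRCh38. The RefSeq start can differ from the canonical TSS, as it does at LIG4. Bound members had a median GC content of 60.7% (n = 25, range 48.0 to 76.0) and unbound members 67.2% (n = 24, range 32.3 to 78.0). These ranges overlap, and the difference was not tested. Over all genes the bound promoters had the higher median, 64.3% against 62.3%. The ratio of observed to expected CpG was 0.880 in bound and 0.898 in unbound members. Over all genes it was 0.875 and 0.718. RAD51B had the lowest GC content of the unbound members, 32.3%.

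Exact matches to short factor motifs, on both strands, were counted in the same windows. The ETS and E-box letters were already known from earlier results of these data. The ETS letters CCGGAAGT were found in 5 of 25 bound members (20.0%, 8.86 to 39.1) and 3 of 24 unbound members (12.5%, 4.34 to 31.0). They are in 6.32% of all promoters, 16.3% of those bound by PHF20 and 3.55% of the others. Of the 5 members with PHF20L1, 3 hold them in this window (23.1 to 88.2%), and the share over all genes with PHF20L1 was not measured. The E-box CACGTG was in 5 bound and 2 unbound members, and in 8.88% of all promoters. CCAAT, read by NF-Y, was in 32.0% of bound and 54.2% of unbound members (36.6% of all promoters), and GGGCGG, read by SP factors, in 60.0% and 79.2% (59.3% of all). The E2F letters TTTGGCGC, TTTCCCGC or TTTCGCGC were in 16.0% and 16.7% of members, beside 3.83% of all promoters. The NRF1 letters GCATGCGC were in 16.0% and 8.33%, beside 4.24%. The YY1 letters AAGATGGCG were in 0 of 49, beside 2.79%. Every pair of bound and unbound member shares has overlapping intervals.

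Within the peaks themselves, ETS letters were in 8 of the 31 PHF20 peaks of members (25.8%) and in 16.2% of all 4147 PHF20 peaks. The members were BRCA2, RAD50, MRE11, XRCC4, FANCD2, ERCC3, ERCC5 and ERCC6, and RAD50 and XRCC4 had 2 matches each; all of these sites but that of ERCC5 are printed near the start. E-boxes were in 11 of 31 (35.5%) against 16.0%, with 3 at APEX1 alone. Wider peaks hold more letters, and the part of width in these shares was not tested. Of the 6 PHF20L1 peaks 3 held the ETS letters, beside 16.6% of all PHF20L1 peaks. In RAD50 both matches fell in the PHF20 peak and outside the PHF20L1 peak. The unbound promoters of PALB2, LIG4 and OGG1 hold the same 8 letters. The LIG4 match lies at -2956 bp from its canonical TSS, near a different start that RefSeq uses. Member PHF20 peaks had a median of 6.35 CpG per 100 bp (3.27 to 11.6), beside 7.54 in all PHF20 peaks.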

How the data were processed

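The authors mapped the reads to hg38 with Bowtie 1.1.2, retained unique and deduplicated reads, called peaks with MACS2 2.2.7.1 against input and removed blacklisted regions. The list of each protein holds peaks of its best-signal replicate that overlapped peaks of its remaining libraries. A PHF20 replicate with failed peak calling was left out by the authors. The deposited values are genomic start and end positions with no score, height or read count, so depth is unknown here. Replicate numbers differ between labels and were not used.

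Peaks were intersected with promoter windows of GENCODE release 44 transcripts, a later release than that of the authors. Shares carry Wilson 95% intervals, and no test was run, because the lists hold no replicate values. The members, pathway lists and motifs were chosen with earlier results of these data known. Every member was named, with values for those bound by PHF20L1, the widest 3 and narrowest PHF20 peaks of a pathway, and those whose call changed under an alternative. Of 71 other repair genes, those bound by PHF20L1, and those bound by neither protein in pathways of under 8, were named. Facing genes were taken from GENCODE, and promoter motifs and composition from RefSeq sequences on GRCh38.p14 (not found for NBN, WRN, XRCC5, FANCI and POLB). The BRCA1 peaks were aligned locally with Biopython 1.88 (match 1, mismatch -1, gap -3 and -1). The rule that calls a gene bound was tested on simulated peaks placed at real gene models, and the other steps were not tested in this way. Alternatives were other TSS sets, windows, overlap rules and width minimums. KANSL3 and RNA-Seq data were not analysed here. Scripts ran in Python 3.11.15 with pysam 0.24.0 and scipy 1.17.1, and plots were drawn in matplotlib 3.10.9.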

Additional observations from a re-analysis of the deposited data

How the results depend on the processing

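Across the 9 alternative settings of the binding rule, PHF20 was at 21 members (median width, beside 12.1% of all genes) to 29 members (window of 2500 bp to each side, beside 21.4%), 14 members were bound by PHF20 under every setting and 25 under none. PHF20L1 was at 3 members with peaks of at least 300 bp and at 3 with peaks no narrower than the list median, as was the count of both proteins (3 and 3), beside 2.27%, 2.11%, 2.21% and 1.94% of all genes; 2 members, BRCA1 and FANCD2, were bound by PHF20L1 under every setting. With genes of Fanconi names counted as Fanconi genes, recombination had 6 of 10 bound and the Fanconi pathway 10 of 15, so the order of these pathways turned. With peaks given to the nearest coding TSS, end joining had 1 and mismatch repair 1 bound gene. With peaks of at least 300 bp mismatch repair had 1, and with the list median width end joining had 1, Fanconi 3 and mismatch repair 0. In a window of 500 bp before to 250 bp after the canonical TSS, NF-Y letters were in 76.9% of unbound members, and SP letters in 82.1% of bound and 96.2% of unbound members; the wider window itself holds more letters. Of 109 alternative values, 94 stayed within 1.5 times the reported count or, for shares and widths, within its 95% interval. No paired analysis was possible because each protein has a single list without replicate values, and for the same reason no replicate could be left out. Depth and peak height are not in the lists, so weak binding below the threshold was not detectable.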

Other observations

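Other repair genes, 71 in all and not among the 54, were read by the same rule. PHF20 was at 32 of them (45.1%, 34.0 to 56.6), beside 20.7% of all protein-coding genes, and PHF20L1 at 7 (9.86%, 4.86 to 19.0), beside 3.82%. By pathway PHF20 was at 10 of 16 recombination genes, 4 of 7 end joining genes, 5 of 14 Fanconi genes and 7 of 16 nucleotide excision genes. It was at 0 of the 3 genes listed under mismatch repair (MSH4, MSH5 and PCNA) and at 6 of 15 base excision genes. Both proteins were at 6 of the 71 (8.45%, 3.93 to 17.2), beside 3.73% of all genes. These were RAD51AP1, a recombination factor, EME1, a partner of the MUS81 nuclease, TOP3A, which dissolves joint molecules with BLM, the TFIIH subunits GTF2H1 and GTF2H3, and CUL4A, the scaffold of the DDB1 ubiquitin ligase. RAD51AP1 had the widest PHF20 peak among these, 1561 bp, and TOP3A the next, 1554 bp. At all 6 genes the peaks also overlapped the promoter window of a coding neighbour. In the same order these neighbours were C12orf4, MRPL27, SMCR8, HPS5, EIF2B1 and PCID2. Such peaks cannot be assigned to either gene from these lists.

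Over all protein-coding genes, 747 of the 766 with PHF20L1 also carried PHF20. DDB2, the UV damage sensor that partners DDB1, was the only repair gene of either list with PHF20L1 alone. Its PHF20L1 peak was 418 bp wide and the nearest PHF20 peak was 10305 bp from its window, while DDB1 carried PHF20 alone. Neither protein was at the end joining genes NHEJ1, PAXX and APLF, or at MSH4, MSH5 and PCNA, which were only listed here under mismatch repair.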
